A study of Mus musculus with 24 samples.

Results

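Regions at 7 genes are described here, Pkd1l2, Erlec1, Chil4, Galnt17, Mier2, Dnhd1 and Fyb2. They held the well-covered genic regions with the highest H3K9me2 over input in mouse heart biopsies. The regions taken are all listed ones that overlap one of the 7 genes or lie within 2 kb of it, 13 of the 53386 regions counted in the series. Pkd1l2 holds 4 of them, Mier2 3, Chil4 2 and the other genes 1 each.

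The study precipitated chromatin with an antibody to H3K9me2, sequenced it (ChIP-seq) and sequenced the matching input, which is the same digested chromatin without precipitation. The 6 C57BL6 mice, 3 female and 3 male and all aged 12 months, had gone through ischemic preconditioning: 4 rounds of 5 min of coronary ligation with 5 min of reflow, ended by 30 min of reperfusion. Each heart gave a biopsy of the area at risk, supplied by the ligated artery, and one of the remote myocardium, so there are 4 groups of 6 libraries. Every mouse was preconditioned, so the remote tissue too came from preconditioned hearts, and sham hearts were not analysed here. Total counts over the listed regions were 416683 to 1196368 per H3K9me2 library of the area at risk (risk tissue below) and 443261 to 981763 of the remote myocardium (remote tissue). The inputs held 1286383 to 2478668 and 1405503 to 1770520.

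Dimethylation of lysine 9 of histone H3 is a mark of silenced chromatin. It is written mainly by the enzymes encoded by Ehmt2 and Ehmt1, is bound by proteins of the HP1 family, and in cardiomyocytes covers much of the chromatin held at the nuclear lamina. The 7 genes have unrelated tasks. Pkd1l2 encodes a relative of polycystin-1, a large membrane protein. Erlec1 encodes a lectin of the endoplasmic reticulum that binds glycoproteins bound for degradation. Chil4 encodes a secreted chitinase-like lectin made by mouse myeloid and epithelial cells in type 2 inflammation. Galnt17 belongs to the polypeptide GalNAc transferases, the enzyme family that starts mucin-type O-glycosylation. Mier2 encodes a nuclear corepressor that recruits histone deacetylases. Dnhd1 encodes a protein related to dynein heavy chains that serves the sperm flagellum. Fyb2 encodes an adaptor of T cell receptor signalling. A biopsy holds many cell types, so a mark in a share of the cells cannot be told apart from a weaker mark in all of them.

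Coordinates are those of build mm10 as deposited. Gene ends come from the RefSeq annotation of the same assembly, GRCm38.p6, and strands and start sites from its promoter windows, which were found for 5 of the 7 genes and not for Erlec1 and Dnhd1. None of those 5 windows of 300 bases (250 before the start site and 50 after it) was overlapped by a listed region, while 26.8% of the 32851 windows were. For Mier2 and Fyb2 the start site used lies inside the annotated gene and not at its 5′ end. The 250 upstream bases are shown for the 3 genes whose members lie nearest to a start site. They run 5′ to 3′ on the gene's strand, and capitals mark CG dinucleotides and the motif TATAAA.

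Pkd1l2, chr8:117082450-117082699 (minus strand): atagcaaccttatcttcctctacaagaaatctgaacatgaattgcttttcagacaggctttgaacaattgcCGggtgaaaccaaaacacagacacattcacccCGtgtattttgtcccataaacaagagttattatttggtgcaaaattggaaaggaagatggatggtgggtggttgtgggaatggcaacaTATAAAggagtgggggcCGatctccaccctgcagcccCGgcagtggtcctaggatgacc
Chil4, chr3:106219480-106219729 (minus strand): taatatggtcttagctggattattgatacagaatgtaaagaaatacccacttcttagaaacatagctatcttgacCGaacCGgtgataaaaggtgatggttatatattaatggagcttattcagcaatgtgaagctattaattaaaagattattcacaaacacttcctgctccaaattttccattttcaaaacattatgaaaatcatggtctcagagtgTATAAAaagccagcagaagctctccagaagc
Mier2, chr10:79555129-79555378 (minus strand): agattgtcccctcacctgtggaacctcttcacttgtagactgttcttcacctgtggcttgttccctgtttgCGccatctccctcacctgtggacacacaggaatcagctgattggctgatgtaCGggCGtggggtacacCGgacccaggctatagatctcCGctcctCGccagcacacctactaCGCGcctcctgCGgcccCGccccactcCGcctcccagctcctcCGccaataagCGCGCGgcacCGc

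The Chil4 stretch is poor in G and C (34.0%) and holds 2 CG. The Pkd1l2 stretch has a GC share of 46.0% and 4 CG. Mier2 stands apart from both, with a GC share of 61.6% and 16 CG, an observed over expected CG of 0.72 against 0.28 for Chil4 and 0.30 for Pkd1l2. The median window of the table has a GC share of 52.4%, 6 CG and an observed over expected CG of 0.37. Galnt17 resembled Mier2, at 64.8% and 21 CG, and Fyb2 combined 62.8% GC with 7 CG. TATAAA, searched on both strands, occurs in the Pkd1l2 and Chil4 stretches and in 12.4% of all windows. Measured from the start site, the nearest member lay 0.65 kb inside the gene for Pkd1l2 and 7.88 kb inside it for Chil4. For Mier2 it lay 3.87 kb upstream of a start site that is itself inside the annotated gene. Counts are given for listed regions only, so whether these start sites carry the mark is unknown.

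The genes were chosen by their H3K9me2 over input in these same libraries. Genic regions at or above the median abundance were ranked by log2 fold change of H3K9me2 over input in each biopsy. Among 17245 such regions of risk tissue, Pkd1l2 (1.17), Erlec1 (1.12), Chil4 (1.09) and Galnt17 (1.06) filled ranks 1, 2, 4 and 5. Rank 3 was a region beside AA986860 (1.09), which is no member, and the next ranks held 1.04 and then 1.02 for Gm12718. Among 17202 regions of remote tissue, Mier2 (1.29), Dnhd1 (1.24) and Fyb2 (1.22) filled ranks 2, 3 and 5. Rank 1 (1.30) and rank 4 (Gm30382, 1.22) are no members, and Prmt8 at 1.21 was the first below. Members and the regions just outside thus differed by less than 1 standard error, which was 0.16 to 0.22 at the choosing regions. Values in the biopsy that chose a gene are a description and carry no test. The other biopsy of the same hearts did not choose the gene, and there the difference from input was tested.

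CPM in what follows are counts scaled to a library's total in the listed regions, and 3 CPM values in a row are the lowest, the median and the highest of 6 libraries. All 13 regions passed the filter on low counts in every comparison, 12 lie at or above the median abundance in remote tissue and 11 in risk tissue, and none overlaps another listed region. They are 1600 to 5000 bases wide, with a median of 2800 (2600 over all regions). Single H3K9me2 libraries held 11 to 111 counts in a region, which limits the precision of a single mouse.

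In the biopsy that did not choose the gene, all 8 regions of the genes chosen in risk tissue and all 5 of those chosen in remote tissue lay above input, called or not. Over all tested regions 50.7% did in remote tissue and 50.9% in risk tissue. The 4 genes chosen in risk tissue carried the mark in remote tissue too: H3K9me2 was higher than input in 8 of their 8 regions (edgeR quasi-likelihood test, Benjamini-Hochberg FDR 0.05), against 20.5% of all 40767 regions tested (40.5% were called in either direction). Their median log2 fold change there was 0.93, from 0.40 to 1.18, and 0.01 over all regions. Of the 3 genes chosen in remote tissue, 1 of 5 regions, the one upstream of Mier2, was higher than input in risk tissue, against 11.3% of 40928 regions (23.6% called in either direction), with a median of 0.43 (0.12 to 0.83) and 0.01 over all regions. With the mouse as replicate block, 3 of the 5 were called. In the authors' deposited tables the same counts held at an FDR under 0.05, with 8 of 8 and 1 of 5 regions higher in H3K9me2.

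**Figure D1:**
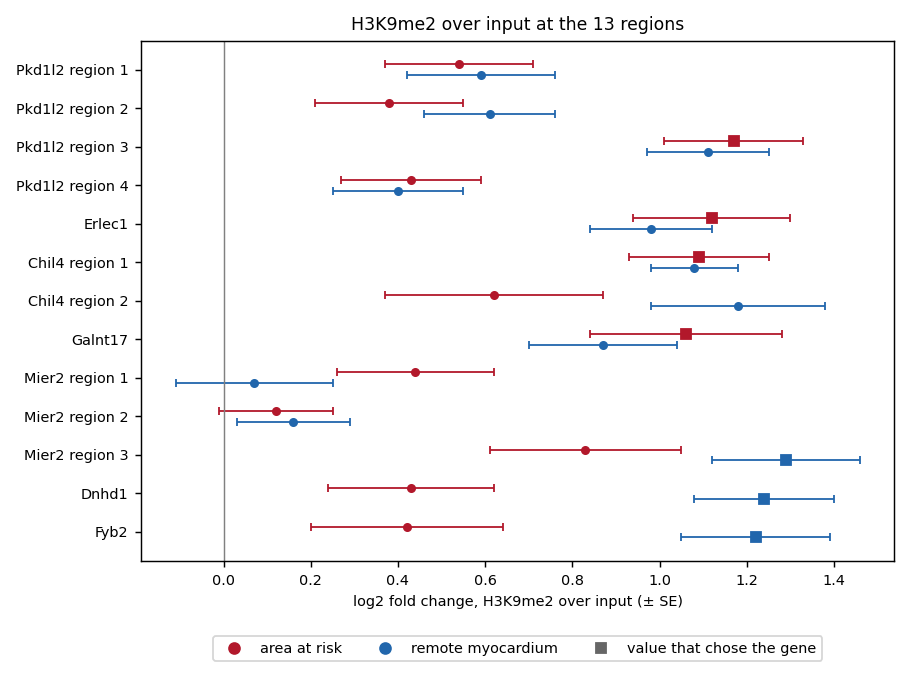
Log2 fold change of H3K9me2 over input (x axis, bars are ± SE) at the 13 regions (y axis), in risk tissue (red) and remote tissue (blue), from fits of 6 against 6 libraries. Squares are the values that chose a gene. All points lie above 0, with both colours near 1 for the choosing regions of Pkd1l2, Erlec1, Chil4 and Galnt17, and red left of blue for Mier2 region 3, Dnhd1 and Fyb2.

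Pkd1l2 spans 86.8 kb of chromosome 8 (116995679 to 117082449, minus strand), and its 4 regions cover 13.1% of it. Numbered by coordinate, region 4 (117078600 to 117081799) lies at 2.59% of the gene counted from the 5′ end, region 3 (117046000 to 117048799) at 40.4%, region 2 (117038000 to 117040799) at 49.6% and region 1 (116998200 to 117000799) at 95.6%. The mark was highest at region 3, inside the gene and 33.65 kb from the start site. In risk tissue, where region 3 chose the gene, H3K9me2 had a lowest, median and highest CPM of 42.6, 52.3 and 70.2, and input of 15.3, 21.8 and 34.6. In remote tissue the H3K9me2 libraries held 38.7, 52.4 and 74.4 and the inputs 18.6, 25.3 and 32.2. Every H3K9me2 library thus lay above every input library of its biopsy. The log2 fold change was 1.17 (SE 0.16) in risk tissue and 1.11 (SE 0.14) in remote tissue, the latter with an edgeR adjusted p of 1.21e-11 and higher in 6 of 6 mice.

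The other regions of Pkd1l2 lay lower, at log2 fold changes from 0.38 to 0.61. Region 1, near the 3′ end, lay at 0.54 (SE 0.17) in risk tissue and 0.59 (SE 0.17) in remote tissue, where its H3K9me2 libraries (26.1, 31.4 and 36.1 CPM) did not overlap the inputs (13.1, 20.8 and 25.4) and the edgeR adjusted p was 0.00256. Region 2, which also overlaps the long noncoding gene Gm15395, lay at 0.38 (SE 0.17) and 0.61 (SE 0.15), with an edgeR adjusted p of 0.000343 in remote tissue. Its H3K9me2 there ran from 33.6 over 43.0 to 47.9 CPM and its input from 22.6 over 25.4 to 36.3, so 2 H3K9me2 libraries lay below the highest input. Region 4, close to the start site, was the lowest in remote tissue. It held 26.1, 35.9 and 48.7 CPM in H3K9me2 and 23.7, 28.7 and 31.9 in input, and 5 of 6 mice were higher in H3K9me2. Its log2 fold change was 0.43 (SE 0.16) in risk tissue and 0.40 (SE 0.15) in remote tissue, with an edgeR adjusted p of 0.025. That call was lost in DESeq2 (adjusted p = 0.0615) and without mouse 19 (0.0991), mouse 27 (0.221, log2 fold change 0.26) or mouse 30 (0.0604), with a range of 0.00762 to 0.221 over all alternatives. The 4 regions summed gave 0.66 (SE 0.10) and 0.70 (SE 0.09).

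Erlec1 spans 91.6 kb of chromosome 11 (30862794 to 30954386). Its 1 region (30908600 to 30911799), inside the gene at 51.8% of its length from the lower end, covers 3.49% of it and lies within 2 kb of the pseudogene Gm12104. At risk, H3K9me2 held a lowest, median and highest CPM of 29.3, 53.8 and 64.8, and input 12.9, 21.9 and 29.1. The remote libraries held 35.7, 54.1 and 68.2 against 22.1, 25.7 and 29.2. H3K9me2 and input did not overlap in either biopsy, though in risk tissue the lowest H3K9me2 and the highest input were nearly level. Erlec1 lay at a log2 fold change of 1.12 (SE 0.18) in risk tissue, as chosen, and at 0.98 (SE 0.14) in remote tissue, with an edgeR adjusted p of 2.02e-09 and higher in 6 of 6 mice.

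Chil4 spans 18.0 kb of chromosome 3 (106201491 to 106219479, minus strand). Region 1 (106196600 to 106201599), which chose the gene, has 109 of its 5000 bases inside it and otherwise extends beyond the 3′ end. Region 2 (106210000 to 106211599) lies in the middle of the gene, at 48.2% from the 5′ end. Chil4 has close relatives among its neighbours, and how reads with several matches were placed is not given in the sources used here, so counts may be split between them. At region 1 risk tissue held 64.4, 118.0 and 182.0 CPM in H3K9me2 and 37.9, 54.9 and 66.1 in input. There 1 H3K9me2 library lay below the highest input. The remote libraries held 86.6, 113.0 and 161.0 against 45.2, 53.9 and 66.8, with no overlap. For region 1 the log2 fold change was 1.09 (SE 0.16) in risk tissue, as chosen, and 1.08 (SE 0.10) in remote tissue, the smallest p among the tested members (edgeR adjusted p = 1.15e-18).

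The region inside Chil4, region 2, held 13.4, 25.8 and 36.0 CPM in H3K9me2 of risk tissue and 8.23, 16.7 and 24.3 in input, with all 6 mice higher in H3K9me2 but 2 libraries below the highest input. Remote libraries held 18.6, 30.1 and 40.6 against 7.67, 13.2 and 16.6, without overlap. For region 2 the log2 fold change was 0.62 (SE 0.25) in risk tissue and 1.18 (SE 0.20) in remote tissue, with an edgeR adjusted p of 1.72e-07 in the latter. The difference between these enrichments was not called (-0.56, 95% interval -1.19 to 0.07, edgeR adjusted p = 1.0).

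Galnt17 is the longest of the genes, 433.2 kb of chromosome 5 (130874343 to 131307522, minus strand), and its 1 region (131194200 to 131196399) covers 0.508% of it. The region lies 111.12 kb inside the gene, at 25.9% from the 5′ end. At risk, H3K9me2 held 21.7, 32.6 and 57.6 CPM and input 10.1, 13.6 and 32.3, and 3 H3K9me2 libraries lay below the highest input, that of mouse 17. The remote libraries did not overlap, at 26.3, 30.4 and 49.4 against 15.1, 17.8 and 19.9, the highest being that of mouse 23, apart from the rest. For Galnt17 the log2 fold change was 1.06 (SE 0.22) in risk tissue, as chosen, and 0.87 (SE 0.17) in remote tissue, with an edgeR adjusted p of 1.02e-05 and higher in 6 of 6 mice.

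Across these 4 genes, 6 of the 8 regions had all 6 remote H3K9me2 libraries above all 6 inputs, against 6.84% of the regions tested there, and 7 of 8 were higher in H3K9me2 in every mouse. There the choosing region of Pkd1l2 was exceeded by 0.429% of the tested regions, that of Chil4 by 0.522%, that of Erlec1 by 1.30% and that of Galnt17 by 2.78%.

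**Figure D2:**
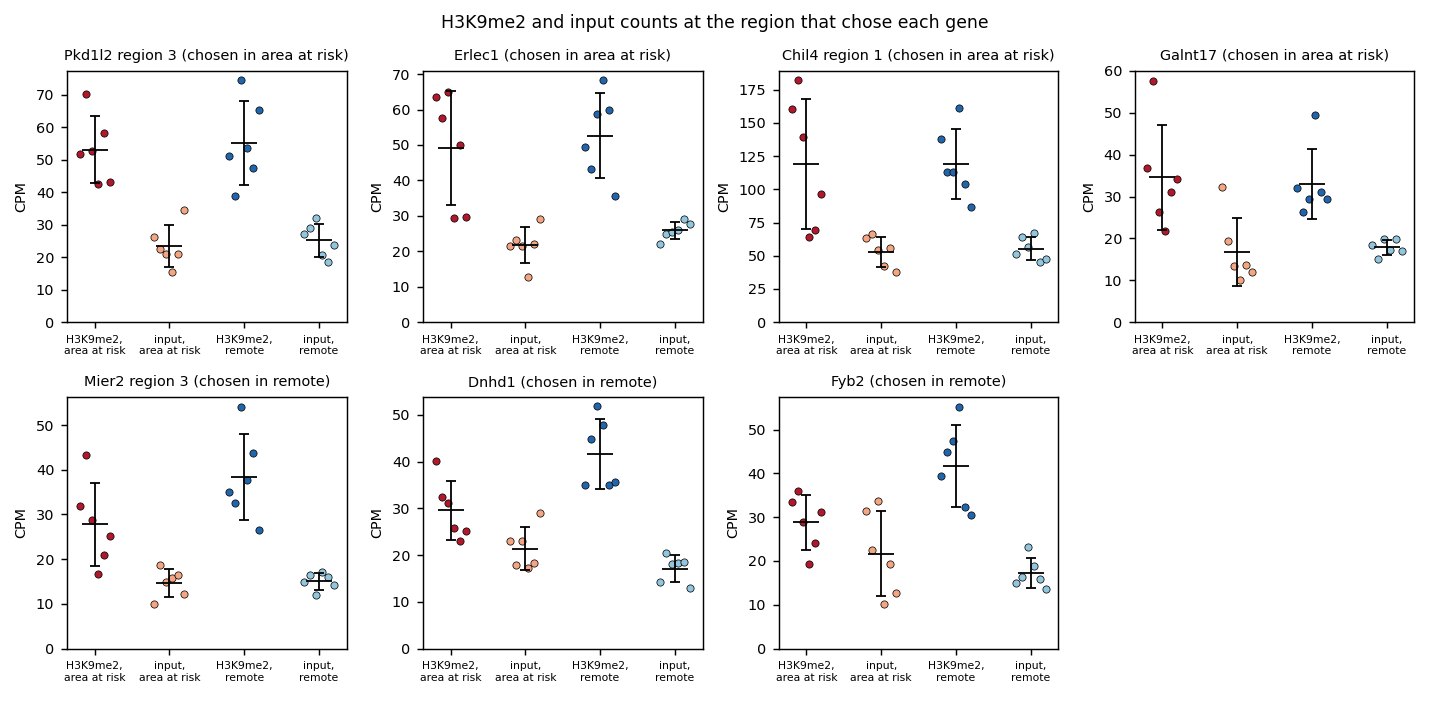
CPM (y axis, from 0) of the 6 libraries of each group at the region that chose each gene, with the mean and SD as bars. H3K9me2 and input separate in both biopsies for Pkd1l2 and Erlec1, in remote tissue for all 7 genes, and overlap in risk tissue for the other 5, with 1 H3K9me2 library below the highest input for Chil4 and Mier2, 3 for Galnt17 and Dnhd1 and 5 for Fyb2.

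Mier2, chosen in remote tissue, is the shortest gene at 16.8 kb of chromosome 10 (79540245 to 79557042, minus strand). Region 3 (79559000 to 79560999), which chose it, lies wholly upstream, just within the 2 kb that count as the flank. Region 1 (79536800 to 79538999) lies wholly beyond the 3′ end, and region 2 (79546400 to 79550999) is in the gene and covers 27.4% of it. Of the 3, the upstream region carried the mark in remote tissue, given here without a test: the log2 fold changes were 1.29 (SE 0.17) upstream, 0.16 (SE 0.13) in the gene and 0.07 (SE 0.18) downstream. The remote libraries at region 3 held 26.5, 36.4 and 54.1 CPM in H3K9me2 and 11.9, 15.4 and 17.2 in input, without overlap.

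The upstream region of Mier2 was higher than input in risk tissue as well. It held 16.7, 27.0 and 43.2 CPM in H3K9me2 and 10, 15.3 and 18.7 in input there, all 6 mice were higher in H3K9me2 and 1 library lay below the highest input. The log2 fold change was 0.83 (SE 0.22), with an edgeR adjusted p of 0.00359, and it remained called in each of the 12 alternatives tried (adjusted p from 0.000908 to 0.0291). Region 2, in the gene, held 46.0, 48.6 and 55.2 CPM in H3K9me2 and 41.2, 43.9 and 54.7 in input, nearly level (0.12, SE 0.13, edgeR adjusted p = 0.517). At region 1, beyond the 3′ end, H3K9me2 held 26.7, 28.7 and 31.2 CPM and input 14.9, 21.3 and 30.4. Its log2 fold change was 0.44 (SE 0.18) with an edgeR adjusted p of 0.0704, or 0.0416 with the replicate block and 0.0407 without mouse 22 (0.0407 to 0.239 over all alternatives). The 3 regions summed gave 0.36 (SE 0.11) in risk tissue and 0.43 (SE 0.10) in remote tissue, and region 2, the one near input, holds the most reads of the 3.

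Dnhd1 spans 71.0 kb of chromosome 7 (105650776 to 105721800), and its 1 region (105696000 to 105698399) lies inside the gene at 65.4% from the lower end, covering 3.38% of it. Remote tissue chose Dnhd1, and there H3K9me2 held 34.9, 40.3 and 51.9 CPM and input 13, 18.2 and 20.4, and the log2 fold change was 1.24 (SE 0.16). In risk tissue H3K9me2 held 23.0, 28.6 and 40.1 and input 17.3, 20.6 and 29.1, so the groups overlapped, with 3 H3K9me2 libraries below the highest input. The log2 fold change there was 0.43 (SE 0.19), higher in 5 of 6 mice (edgeR adjusted p = 0.0836). Mouse 30 was the exception: without it the value was 0.58 with an adjusted p of 0.0377, and with the replicate block the adjusted p was 0.0551 (0.0377 to 0.247 over all alternatives).

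Fyb2 spans 181.6 kb of chromosome 4 (104835301 to 105016864, plus strand). Its 1 region (104956200 to 104958999) lies inside the gene at 67.4% from the 5′ end and covers 1.54% of the gene. The region is 42.64 kb past the RefSeq start site at 104913561, which lies inside the annotated gene and not at its 5′ end. Remote tissue chose Fyb2, and there H3K9me2 held 30.6, 42.1 and 55.2 CPM and input 13.6, 16.2 and 23.2, and the log2 fold change was 1.22 (SE 0.17). In risk tissue H3K9me2 held 19.2, 30.0 and 36.0 and input 10.1, 21.0 and 33.8, with 5 H3K9me2 libraries below the highest input. There the log2 fold change was 0.42 (SE 0.22), higher in 5 of 6 mice (edgeR adjusted p = 0.164, or 0.0388 at 0.50 with the replicate block and 0.0388 to 0.477 over all alternatives).

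None of the 5 regions of these 3 genes had all 6 H3K9me2 libraries of risk tissue above all 6 inputs, where 2.24% of tested regions did. In risk tissue the choosing region of Mier2 was exceeded by 1.26% of the tested regions, that of Dnhd1 by 15.8% and that of Fyb2 by 16.3%. Over all regions, too, fewer were called higher than input in risk tissue (11.3%) than in remote tissue (20.5%), and the part of this in the members' values was not tested.

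The study's own question is whether H3K9me2 differs between tissue that went through the occlusions and remote tissue. At the 13 regions no difference was called. In H3K9me2 the edgeR test called 0 of 13, and 0 of 31526 regions in all (0%), with 3 members and 1272 regions at an unadjusted p under 0.05. DESeq2 also called 0, with 3 members and 454 regions under 0.05. These comparisons share libraries with those that chose the genes, so the direction at a choosing region is in part set by the choice. The 3 lowest were Fyb2 (-0.56, 95% interval -0.93 to -0.19), Mier2 region 3 (-0.51, -0.89 to -0.13) and Dnhd1 (-0.50, -0.86 to -0.15), each lower in risk tissue in 5 of 6 mice, with overlapping groups and an edgeR adjusted p of 0.999. The other 10 regions ran from -0.31 to 0.31. Input differed between the biopsies by -0.28 to 0.32 at the members, with 0 of 13 called and 0 at an unadjusted p under 0.05 in edgeR and in DESeq2.

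The input-corrected difference subtracts the enrichment of remote tissue from that of risk tissue. The enrichment that chose a gene enters this difference, so its direction at a choosing region is in part set by the choice. It was lowest for Dnhd1 (-0.82, 95% interval -1.29 to -0.34) and Fyb2 (-0.80, -1.34 to -0.25), both chosen in remote tissue. In both, the H3K9me2 value lay below 0 and the input value above it (0.32 and 0.24), neither called. For Mier2 region 3 the corrected difference was -0.48 (-1.01 to 0.06) and that of input -0.03. Chil4 region 2, which did not choose its gene, lay lower than that, at -0.56 (-1.19 to 0.07), with input at 0.27. The 4 genes chosen in risk tissue had differences near 0 at their choosing regions. Galnt17 lay at 0.19 (-0.36 to 0.74), Erlec1 at 0.13 (-0.32 to 0.58), Pkd1l2 region 3 at 0.07 (-0.36 to 0.50) and Chil4 region 1 at -0.01 (-0.41 to 0.39). The edgeR adjusted p was 1.0 for all 13, of which 2 had an unadjusted p under 0.05. In all, 0 of 42445 regions (0%) were called, with 1728 under 0.05, and DESeq2 called 0, with 2 members and 1127 regions under 0.05.

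**Figure D3:**
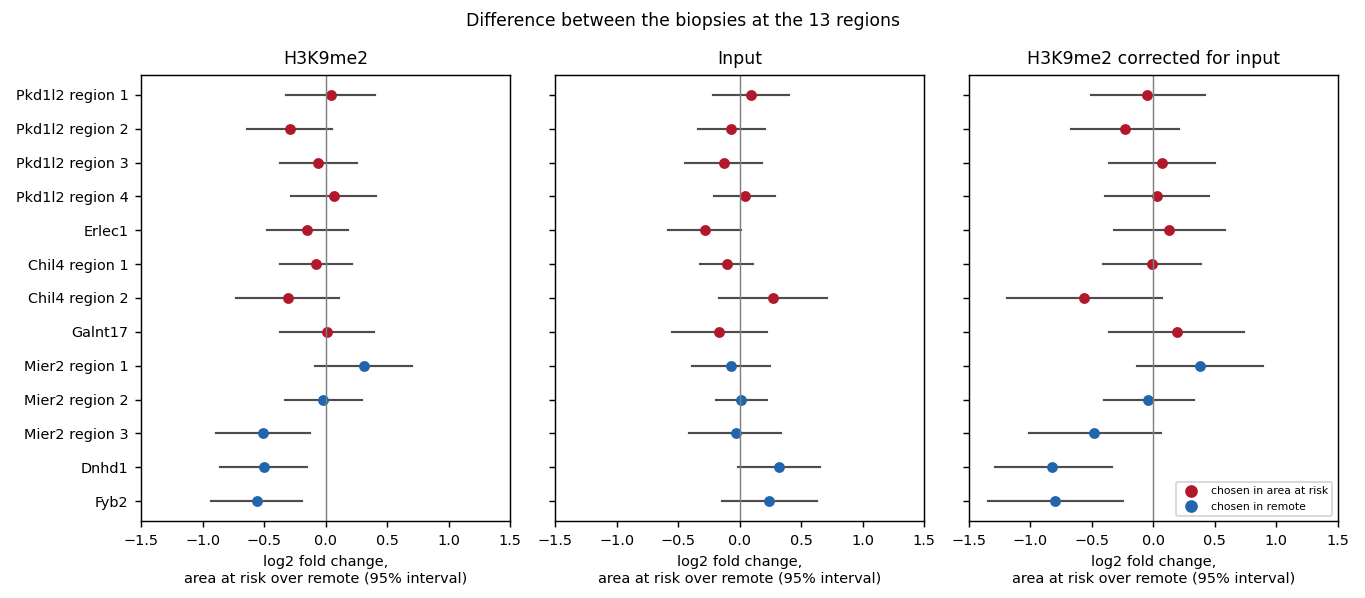
Log2 fold change of risk tissue over remote tissue (x axis, bars are 95% intervals) at the 13 regions (y axis) in H3K9me2, in input and in H3K9me2 corrected for input. Dnhd1 and Fyb2 lie lowest in the right panel (-0.82 and -0.80), with H3K9me2 left of 0 and input right of 0. Genes chosen in risk tissue (red) lie around 0 there at their choosing regions, while Chil4 region 2, also red, lies at -0.56. At a choosing region the direction is in part set by the choice.

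Seen within 100 kb on either side, the genes sat in different surroundings. Erlec1 and Galnt17 have no other listed region in that span, and Fyb2 has 1, near Prkaa2 (the catalytic α2 subunit of AMP-activated kinase), at -0.05 in risk tissue and 0.15 in remote tissue. Chromatin outside the listed regions has no counts here, so whether it carries the mark is unknown. Chil4 lay in a marked stretch: its 4 neighbours were all higher than input in both biopsies (edgeR FDR 0.05, against 11.3% and 20.5% of all regions). Their log2 fold changes ran from 0.85 to 0.99 in risk tissue and from 0.81 to 1.18 in remote tissue, where 3 of the 4 exceeded Chil4 region 1. The neighbour at Chia1, which encodes an acidic chitinase of the same family, lay at 0.85 (SE 0.17) and 0.81 (SE 0.14).

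Around Dnhd1 no neighbour was called higher than input in either biopsy, nor was the Dnhd1 region itself in risk tissue. Of the 14 tested, 5 were lower in risk tissue and 4 in remote tissue (edgeR FDR 0.05; 12.3% and 20% of all regions were). They ran from -1.0 to 0.20 in one biopsy and -1.40 to 0.36 in the other, and the lowest was the region at Rrp8 and Ilk, the latter encoding integrin-linked kinase, a scaffold at cell-matrix contacts. All 14 lay under the Dnhd1 region in risk tissue (0.43), and also in remote tissue, where its value chose the gene. Around Mier2, 7 tested neighbours ran from 0.03 to 0.47 in risk tissue, with 0 higher, and from -0.01 to 0.42 in remote tissue, with 2 higher. Around Pkd1l2, 11 in risk tissue ran from -0.25 to 0.58, with 3 higher, and in remote tissue from -0.33 to 0.76, with 1 higher. That one, at Bco1 (the enzyme that cleaves β-carotene), was higher in both biopsies, at 0.52 and 0.76.

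**Figure D4:**
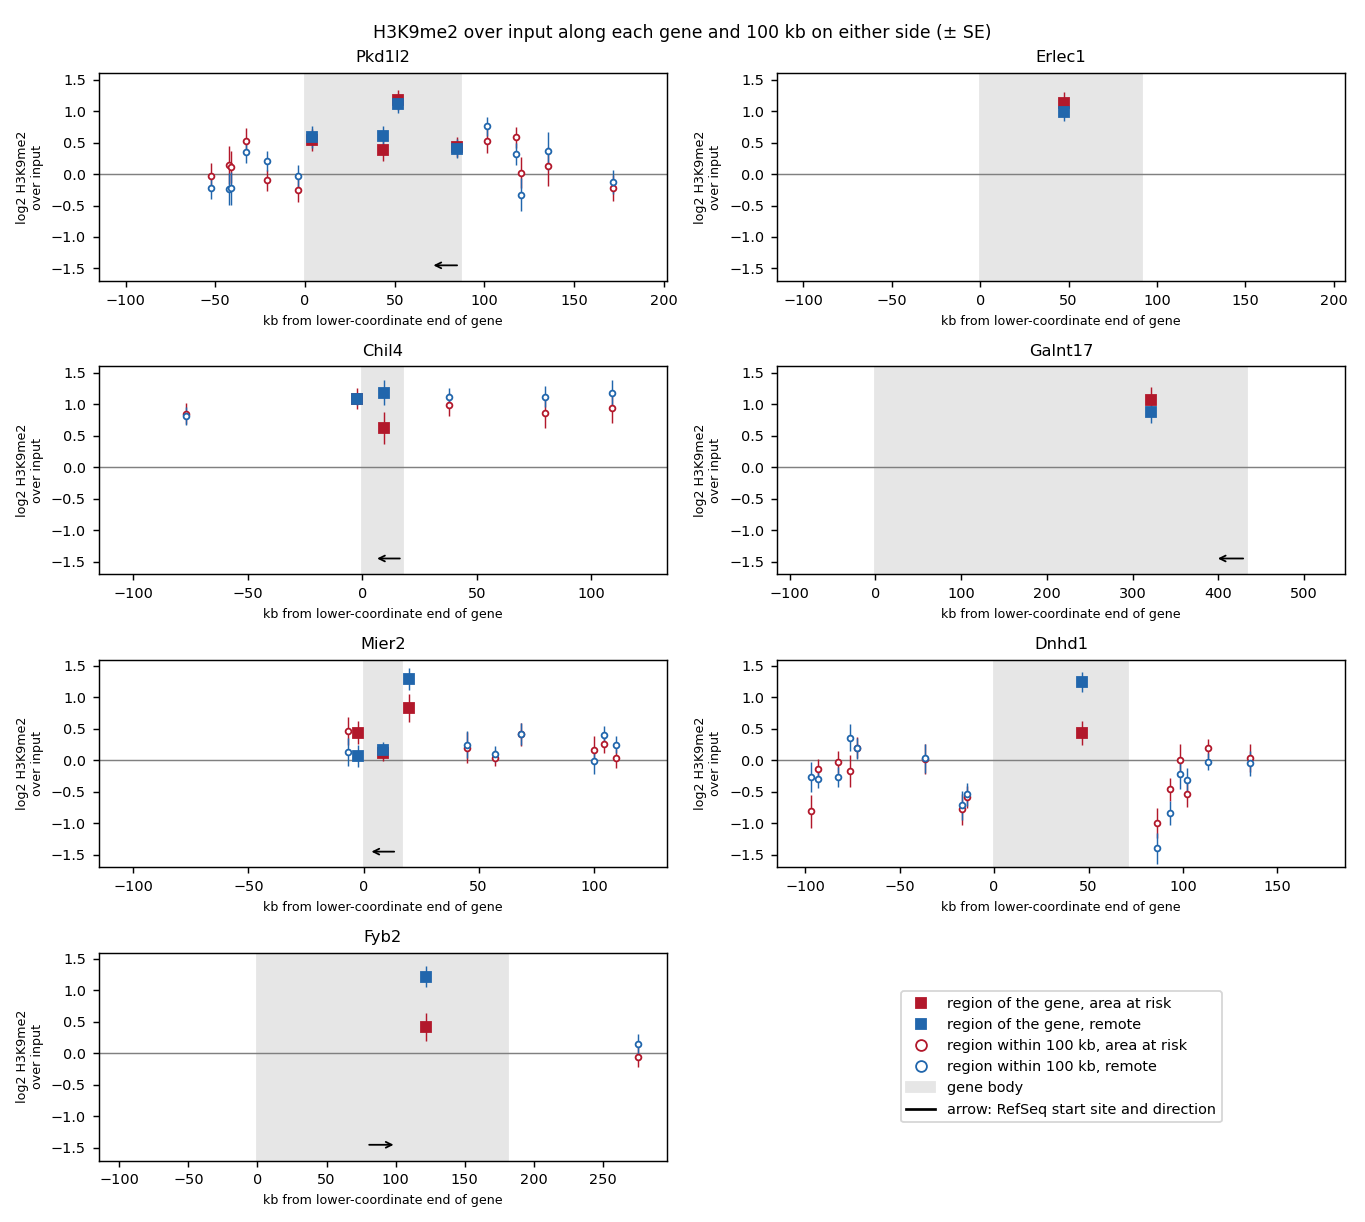
Log2 fold change of H3K9me2 over input (y axis, bars are ± SE) against distance from the gene's lower-coordinate end in kb (x axis), for each gene and 100 kb on either side. Squares are the members, open circles other tested regions, grey the gene, and arrows the RefSeq start site and direction where given. Chil4 has neighbours near 1, Dnhd1 has neighbours down to -1.40, and Erlec1 and Galnt17 have no other listed region.

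Relatives of the 7 genes were looked up by family name. Of 73 such genes 52 had a tested region. In remote tissue 22 had regions that were higher than input and none lower, 14 the reverse, 4 both and 12 neither; in risk tissue the counts were 13, 10, 2 and 27 (edgeR FDR 0.05). By region, 47 of 220 were higher and 37 lower in remote tissue, and 23 and 20 of 223 in risk tissue, where over all regions 20.5% were higher and 20% lower in remote tissue, and 11.3% and 12.3% in risk tissue. The GalNAc transferases, relatives of Galnt17, had 23 of 68 regions higher and 3 lower in remote tissue, with a median of 0.31 against 0.01 over all regions, and 6 higher and 2 lower in risk tissue (median 0.18). By gene, 7 of 12 had only higher regions and 2 had both in remote tissue. In risk tissue 2 had only higher regions (Galnt18 and Galnt9) and 2 only lower ones. Genes of the lectin and glycoprotein disposal machinery around Erlec1 had 0 of 12 regions higher in either biopsy, 3 lower in risk tissue and 4 in remote tissue. Polycystin genes had 2 higher and 4 lower of 18 in risk tissue and 4 and 6 in remote tissue. All the lower ones lay in 1 gene, Pkd1. Of the 7 polycystin genes, 2 had only higher regions in risk tissue and 3 in remote tissue. The chitinase family had 1 higher and 0 lower of 17, then 2 and 3. Mier genes and their deacetylase partners had 0 and 3 of 14, then 1 and 5. Dynein heavy chains had 11 and 6 of 65, then 13 and 12 of 63. The Fyb adaptors and partners had 3 and 2 of 29, then 4 and 4 of 28.

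In 24 of the relatives the same region was called in the same direction in both biopsies. Of these 15 had a higher region and 11 a lower one, with Fyn and Evl (named after their values were seen) holding one of each. Among the 10 of smallest p in remote tissue, those higher included Lcp2, an adaptor of T cell receptor signalling (0.70 in risk tissue and 0.96 in remote tissue), Galnt18 (0.68 and 0.82) and Chia1. The axonemal dynein genes Dnah9 (0.69 and 1.28), Dnah10 (0.47 and 0.58) and Dnah12 (0.65 and 0.95) were higher as well. Dnah2, axonemal too, was lower (-0.66 and -1.01). Lower too were Dync1h1, the heavy chain of cytoplasmic dynein (-1.12 and -1.82), Pkd1, the gene of polycystin-1 (-0.66 and -1.12), and 1 region of Fyn, a kinase of the Src family (-1.01 and -1.34). Another region of Fyn was higher (0.51 and 0.45).

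Marker genes of the cell types of the heart were counted the same way, as ChIP-seq gives no expression to check the tissue by. Cardiomyocyte genes had 0 of 23 regions higher and 5 lower in risk tissue, and 0 of 24 higher and 13 lower in remote tissue, with median log2 fold changes of -0.44 and -0.57. Over all regions 12.3% and 20% were lower. The lower cardiomyocyte regions lay in 2 of 9 tested genes in risk tissue and in 6 of 9 in remote tissue. Fibroblast genes had 1 higher and 1 lower of 8, then 2 and 4. Endothelial genes had 4 and 5 of 31, then 3 and 5. Leukocyte genes had 1 and 1 of 5, then 2 and 2.

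The regions most like each member across mice were taken as those of highest Pearson r of the log2 ratio of H3K9me2 to input, over 12 pairs of libraries from 6 mice and 16112 to 16115 abundant genic regions. They are a description: the best of so many is high by selection, and the points share libraries and depth. They lay in Zfp423 for Chil4 (0.95), beside Reg4 for Mier2 (0.91), in Anks1 for Erlec1 (0.90), in Rtn4r and Gm52241 for Pkd1l2 (0.88), in Gm572 for Galnt17 (0.88), in Msi2 for Dnhd1 (0.88) and in Adamts16 for Fyb2 (0.87). A like pattern did not always go with a like level. The Anks1 region lay below input (-0.35 in risk tissue and -0.65 in remote tissue). So did those in Rtn4r and Gm52241 (-0.21 and -0.2) and in Gm572 (-0.19 and -0.44). The rest lay above input, from 0.07 for Msi2 in risk tissue to 1.14 for Adamts16 in remote tissue.

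In single mice, counting in each biopsy only the genes that the other biopsy chose, 7 or 8 of 8 regions stood above input in remote tissue and 3 to 5 of 5 in risk tissue. The median ratio of H3K9me2 to input over these regions ran from 1.54 to 2.3 per mouse in remote tissue and from 1.03 to 1.68 in risk tissue. Mouse 22 was the lowest in risk tissue, and mouse 30 in remote tissue.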

How the data were processed

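H3K9me2 ChIP and input chromatin of 2 biopsies from each of 6 mice gave 24 libraries. The authors deposited 4 tables of counts, whole numbers of reads for 53386 regions of mm10. Per the submitters' processing notes Bowtie2 2.2.2, SICER 1.1 and edgeR were used, without stated roles, and duplicate handling is not given in the sources used here. The deposited tables also hold log2 fold changes, log2 mean CPM and p-values with their FDR, per the file headers. Within a biopsy their sign is input over H3K9me2, and between biopsies it is remote myocardium over area at risk. Both are opposite to the signs used here.

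Counts were fitted here with edgeR 4.0.16 (R 4.3.3; TMM, filterByExpr, two-sided quasi-likelihood test, Benjamini-Hochberg FDR 0.05 over all regions tested), with 12 libraries per comparison and all 24 for the input-corrected difference, which is the interaction term. DESeq2 1.42.0 was an alternative. Scaling to the listed regions hides a change alike in all of them, and depth outside them is unknown. Library totals, at most 1196368 counts for H3K9me2, gave log2 fold changes over input with a median standard error of 0.20 at risk and 0.19 in remote myocardium.

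Mouse numbers pair the libraries by design. Deviations from the group means correlated between libraries of one mouse from -0.02 to 0.23 (H3K9me2 and input, area at risk), 0.01 to 0.11 (the same, remote), -0.26 to 0.09 (H3K9me2 of both biopsies) and -0.12 to 0.04 (inputs).

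The genes, lists and tests were chosen with earlier results of these data known. A gene's choosing region is its region of highest log2 fold change at or above the median abundance in the biopsy where it was picked. Named were all members, genes that a member region overlaps, neighbours within 100 kb at an extreme, the genic region most alike to each choosing region, the next genes in the rankings, and at most 10 relatives called in the same direction in both biopsies. Neighbours were named after their values were seen. Region sequences were not used here.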

Additional observations from a re-analysis of the deposited data

Results flagged for a closer look

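Libraries that stood apart from the other 5 of their group were looked for in 52 groups, by the gap to the nearest library as a share of the group's range (Dixon's test at its 95% critical value). There were 2, where chance gives about 1 in 20. The H3K9me2 library of mouse 23 in the remote myocardium held 49.4 CPM at Galnt17, with the others from 26.3 to 32.1 (gap 0.751 of the range). Without mouse 23 Galnt17 was still called there, at a log2 fold change of 0.71 (edgeR adjusted p = 0.00179, the largest over its alternatives). The input library of mouse 22 in the area at risk held 54.7 CPM at Mier2 region 2, in the gene, with the others from 41.2 to 45.0 (gap 0.721).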

How the results depend on the processing

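Tried were median-of-ratios scaling, library totals alone, no filter on low counts, DESeq2, an FDR of 0.01, the mouse as a replicate block and leaving out each mouse. In the remote myocardium the 8 tested members were called under each of them, except Pkd1l2 region 4 as given above. In the area at risk 3 of the 5 tested members were called with the replicate block, namely Mier2 regions 1 and 3 and Fyb2, and 1 to 2 with a mouse left out: 2 without mouse 22 (Mier2 region 1) or without mouse 30 (Dnhd1). The block changed no other call on members. Over all regions of the area at risk, 4637 were higher and 5033 lower, 2142 and 2914 at FDR 0.01, and 2916 (without mouse 19) to 4751 were higher with a mouse left out. Between the H3K9me2 libraries of the biopsies 0 to 1 regions were higher with a mouse left out, the 1 without mouse 19 and not a member. Signs near 0 turned when mice were left out. The log2 fold change ran from -0.01 to 0.17 for Mier2 region 1 over input in the remote myocardium. Between the biopsies it ran in H3K9me2 from -0.26 to 0.10 for Erlec1, from -0.27 to 0.18 for Chil4 region 1, from -0.22 to 0.30 for Galnt17 and from -0.22 to 0.07 for Pkd1l2 region 3. Corrected for input it ran from -0.17 to 0.16 for Chil4 region 1 (0.05 in DESeq2) and from -0.14 to 0.37 for Pkd1l2 region 3. The cause was not tested. With no flank 11 of the 13 regions remained, which leaves out Mier2 regions 1 and 3. Reads per library, 11 to 111 of H3K9me2 in a member, limit what a single mouse can show.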
